A study of Glycyrrhiza uralensis with 6 samples.

Results

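Suspended licorice cells held a small set of transcripts that were counted in every library labelled as treated with methyl jasmonate (MeJA) and in no library labelled control. The set was chosen by the deposited read counts themselves, as the unigenes with at least 10 counted fragments in each of the 3 libraries labelled MeJA, none in the 3 labelled control, and a mean CPM (counted fragments scaled to the total of the library) below 1000 in both groups. It had 47 members among the 116907 unigenes that each file lists. Because the counts of both groups chose the members, their presence in one group and absence from the other is a description, and no test of it counts as support.

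Methyl jasmonate is the volatile ester of jasmonic acid, a plant hormone of wounding and defence. In plant cells the active conjugate of the hormone is perceived by the F-box protein COI1, which leads to the degradation of JAZ repressors and so frees transcription factors such as MYC2. Cultured cells are often given MeJA to raise the production of secondary metabolites, and in licorice these include flavonoids and triterpenoid saponins. A unigene is a gene-level cluster of sequence assembled from the reads without a genome, so it has no chromosome position, and unigenes that grew from connected sequence share a component, the first part of the identifier.

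The libraries came from *Glycyrrhiza uralensis* Fisch callus cultured in liquid medium, from a well-growing suspension line that the study selected. By their labels, the 3 MeJA libraries were given 0.5 μL of MeJA per mL for 9 h. The 3 control libraries were labelled with 0.4 μL of anhydrous ethanol per mL, also for 9 h. The paper's supplement lists the addition as a volume of MeJA solution, so the 0.5 μL need not be pure MeJA. Neither the labels nor the methods say whether a replicate number stands for a separate culture, so p-values measure the spread between these samples, which may be technical. The name inside the file disagrees with the sample's title on the group letter in 6 of 6 files. The counted fragments were set against the sequenced reads that the study's supplement lists for each library. Matched by the names inside the files, the percentage of reads counted was nearly constant over the libraries (coefficient of variation 0.616%), and matched by the titles it was uneven (15.8%), so the depths follow the names inside the files. Groups still follow the titles here, so each direction is that of the libraries as labelled. Should the inner names be correct instead, every member was counted only in control cells. Between 17041505 and 21670945 fragments were counted per library. Libraries are called MeJA 1 to 3 and control 1 to 3. Neither gene names nor sequences come with the identifiers in the files, so members are given by identifier, and no gene function, cell marker or pathway could be checked. In bulk samples like these, a change in how many cells express a transcript and a change in RNA per cell cannot be told apart.

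The members were weakly expressed. Their mean CPM in the libraries labelled MeJA ran from 0.567 to 10.5 with a median of 1.33, while the median of the 24646 unigenes that passed the filter on low counts was 8.09. In FPKM, the authors' measure per unit of length and library total, the members ran from 0.817 to 23.5 with a median of 3.55, against a median of 8.45 over the tested unigenes. Over the 21112 unigenes with at least 10 fragments in every library labelled MeJA, the medians were 12.5 CPM and 11.3 FPKM. The low level was not particular to the members. The 142 unigenes counted only in control had medians of 1.18 CPM and 2.40 FPKM in the control libraries. Of the 47 members, 6 had a mean FPKM of at least 10 and 4 had one below 1. Together they held 2945 fragments in MeJA 1, 1209 in MeJA 2 and 1280 in MeJA 3, at most 0.0168% of a library. In the plot of CPM by rank, the dashed line is the level that 3 counts over the control libraries would give. All members lie above it because the rule asks for at least 10 fragments in each library labelled MeJA.

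**Figure D1:**
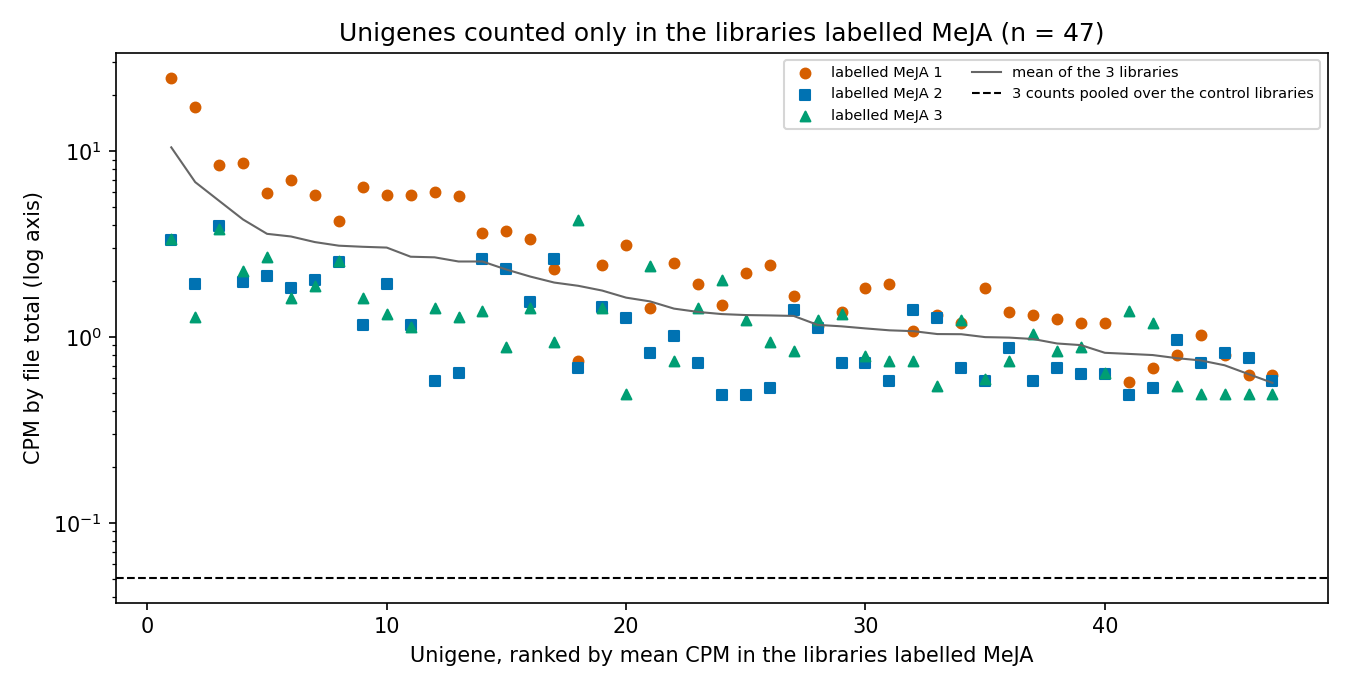
CPM (log axis) of each of the 47 unigenes in the libraries labelled MeJA 1, 2 and 3, ranked by their mean (grey line), with the level of 3 counts pooled over the control libraries (0.0508 CPM) as a dashed line. MeJA 1 (circles) was the highest library for 35 members and carries the points above 5 CPM, while the lowest points lie near 0.5 CPM.

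By CPM, c104617_g1 was the most abundant member, with 434 fragments in MeJA 1, 69 in MeJA 2 and 68 in MeJA 3. It was followed by c83100_g1, with 302, 40 and 26 fragments in the same order. In each of these members the count in MeJA 1 stood far above the other libraries, and all 3 control libraries were at 0. The mean level of c104617_g1 was 10.5 ± 12.3 CPM (SD, n = 3) and that of c83100_g1 was 6.81 ± 9.01 CPM (SD, n = 3), so the SD exceeded the mean in both.

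A different order appeared per length. The highest mean FPKM belonged to c44779_g1, at 23.5 ± 12.5 (SD, n = 3) from 102, 42 and 38 fragments in MeJA 1 to 3. Unigene c35036_g1 had a mean FPKM of 17.3 ± 6.64 (SD, n = 3) from 29, 29 and 17 fragments. The third was c8639_g1, at 16.9 ± 8.74 (SD, n = 3) from 26, 10 and 41 fragments. These were short unigenes, with effective lengths of 132, 76.9 and 76.0 bases, and c35036_g1 and c8639_g1 ranked only 27 and 24 by CPM. The effective length is the number of positions at which a fragment can start, and it was recovered from the count, the FPKM and the library total. The next by FPKM were c104617_g1 at 14.9 ± 17.6 (SD, n = 3), c89614_g1 at 14.7 ± 12.9 (SD, n = 3) and c83100_g1 at 10.7 ± 14.2 (SD, n = 3). Unigene c89614_g1 had 151, 41 and 46 fragments over an effective length of 293 bases.

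A count of 0 does not show absence. At this depth it allows 3 counts over the 3 control libraries, or 0.0508 CPM, a limit that covers counting error only. By library total, the bounds on the members' fold over this limit ran from 11.2 to 206, with a median of 26.1. The rule's minimum of 10 fragments per library sets how low such a bound can be, so the lower end is no finding. The members were also chosen for their zeros, which the limit does not take into account. The highest bound, that of c104617_g1, rested on MeJA 1 and was 65.8 without it. After scaling with TMM factors, which edgeR computes from the bulk of unigenes, the bounds ran from 7.52 to 136.5 with a median of 18.1. The members near the lower end, such as c37392_g2 with 11, 12 and 10 fragments, thus allow a control level only about an order of magnitude below their own.

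Of the 47 members, 39 passed the filter on low counts and could be tested with edgeR's quasi-likelihood test. The other 8 were those with a count of exactly 10 in a library, among them c8639_g1 and c27561_g1. All 39 tested members were called higher in the libraries labelled MeJA, with Benjamini-Hochberg adjusted p between 0.00202 and 0.0114. Among all tested unigenes 14.3% were called higher and 12.8% lower with TMM factors, and 24.8% and 7.38% with total counts only. In 36.5% of the tested unigenes every library labelled MeJA had a higher CPM than every library labelled control, and in 23.5% after TMM scaling. The rule used this same contrast, so nothing is read from the members' count.

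The edge of the rule was not a gap. The 2 named members just inside it were c8639_g1 and c27561_g1, the latter with 39, 10 and 25 fragments. Of the 3 unigenes closest outside it, with 0 in every control library and 9 fragments in their lowest library labelled MeJA, the 2 of higher FPKM were c50238_g2, with 9, 11 and 13 fragments in MeJA 1 to 3, and c61838_g2, with 14, 9 and 408. The last of these had more fragments in MeJA 3 than any member had there, but missed the minimum of 10 in MeJA 2. A minimum of 5 fragments gave 122 unigenes, a minimum of 20 gave 15, and a minimum of 50 gave 3. Of the 21112 unigenes with at least 10 fragments in every library labelled MeJA, 0.223% had none in control. A pooled control count of exactly 1 was found for 41, of 2 for 39, of 3 for 49, of 4 for 47 and of 5 for 56. The members were therefore the end of a flat series of low control counts, with no rise at 0. In the opposite direction the series did rise at 0, as 142 unigenes were counted only in control, against 67 with a single pooled fragment labelled MeJA.

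**Figure D2:**
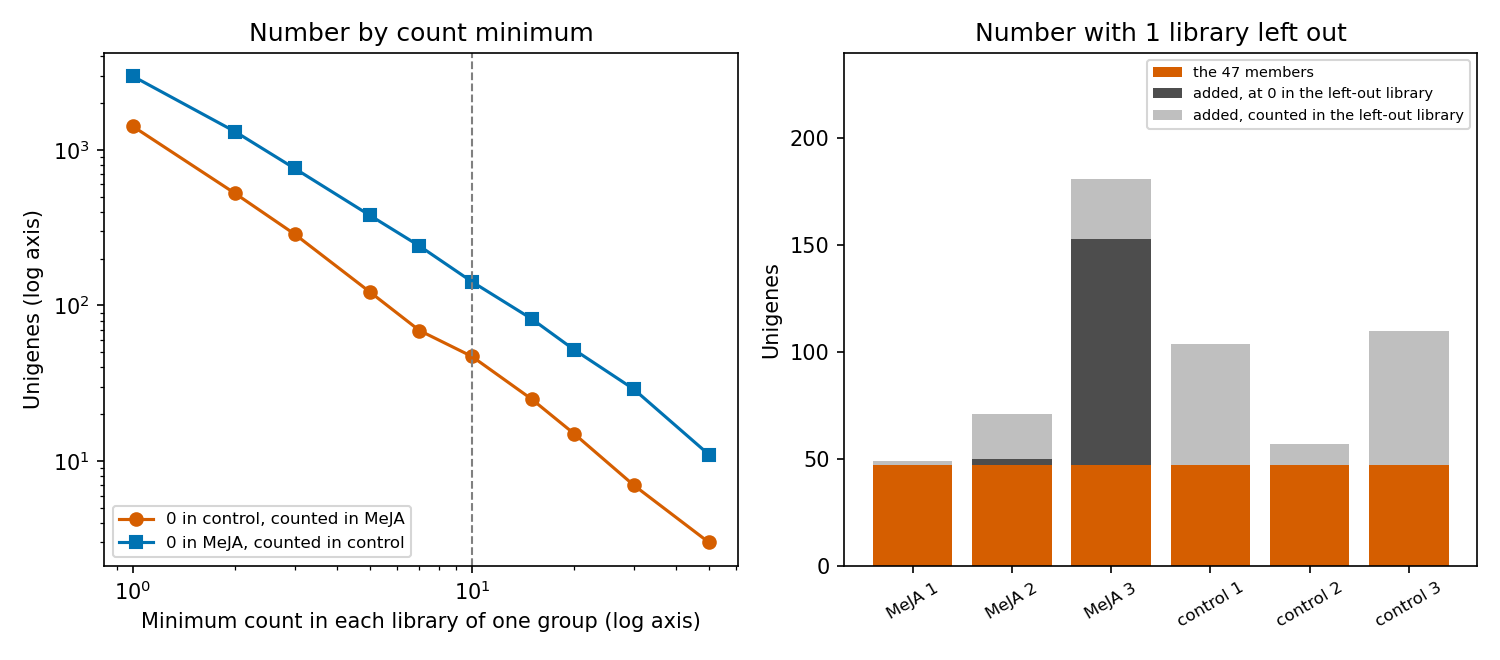
Left, the number of unigenes (log axis) counted in every library of one group and at 0 in the other, by the minimum count required (log axis), with the minimum of 10 dashed: 47 for MeJA and 142 for control. Right, the number counted only in MeJA with 1 library left out, where leaving out MeJA 3 adds 106 unigenes that were at 0 in MeJA 3 itself (dark segment).

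The membership turned on single libraries. Leaving out a library relaxes the rule, so that all 47 stay and others join. Without MeJA 1 the number was 49, and without control 2 it was 57. Without MeJA 2 it was 71, without control 1 it was 104, and without control 3 it was 110. The largest number, 181, came without MeJA 3. Of the 134 unigenes that then joined, 106 had no fragment at all in MeJA 3, although each had at least 10 in MeJA 1 and in MeJA 2 and none in control. Their median counts were 23 in MeJA 1 and 17 in MeJA 2, and their highest were 213 and 155. Only 3 unigenes were at 0 in MeJA 2 in the same way and none in MeJA 1. More unigenes were thus counted only in MeJA 1 and MeJA 2 than in all 3 libraries labelled MeJA.

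The members differed in how far their replicates spread. The coefficient of variation of CPM over the 3 libraries labelled MeJA had a median of 51.2% and ran from 5.30% to 132%. Its median was 35.5% over the tested unigenes and 39.0% over the 3514 that were called higher in MeJA. Low counts alone give such weak unigenes a large variation, and each member's variation was therefore set against the counting error expected from its pooled count. It exceeded that error in 91.5% of the members and 93.6% of the tested unigenes with any count in MeJA, and was at least 2 times the error in 61.7% and 78.6%. For the same spread between samples this ratio is smaller at low counts, so the members' lower share does not show that they varied less.

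The tightest member was c66978_g1, with 20, 23 and 25 fragments in MeJA 1 to 3 and a coefficient of variation of 5.30%, which is below its counting error of 21.0%. Next came c37392_g2 at 12.03%, with a counting error of 30.2%. At the other end, c83100_g1 varied by 132% and c104617_g1 by 118%, 14.7 and 16.3 times their counting errors. Pooled over the libraries labelled MeJA, c37392_g2 had 33 fragments, the fewest of all members. The tightest, c66978_g1, had 68, not far below the members' median of 77. The 2 most uneven members were those with the highest CPM.

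Most of this spread lay in MeJA 1. That library had the highest CPM for 35 of the 47 members, MeJA 3 for 7 and MeJA 2 for 5. After TMM scaling the numbers were 34, 8 and 5. MeJA 1 was also highest for 43.4% of the tested unigenes and for 78.9% of those called higher in MeJA, so the members' 74.5% is close to the latter. The excess itself was often large among the members. In 19 of the 47 (40.4%) MeJA 1 had at least 2 times the CPM of the next library, against 16.4% of the unigenes called higher and 5.73% of all tested. At 3 times these shares were 19.1%, 4.30% and 1.62%. Low counts also widen such ratios, and their part in these shares was not tested. All 12 members that reached 100 fragments in a library did so in MeJA 1, and no member did so in MeJA 2 or MeJA 3. Summed over the members, the level was 168 CPM in MeJA 1, 58.6 in MeJA 2 and 63.0 in MeJA 3. Without c104617_g1 and c83100_g1 the sums were 126, 53.3 and 58.4 CPM, so the order did not rest on these members. Without MeJA 1 the median coefficient of variation of the members fell to 28.9%.

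**Figure D3:**
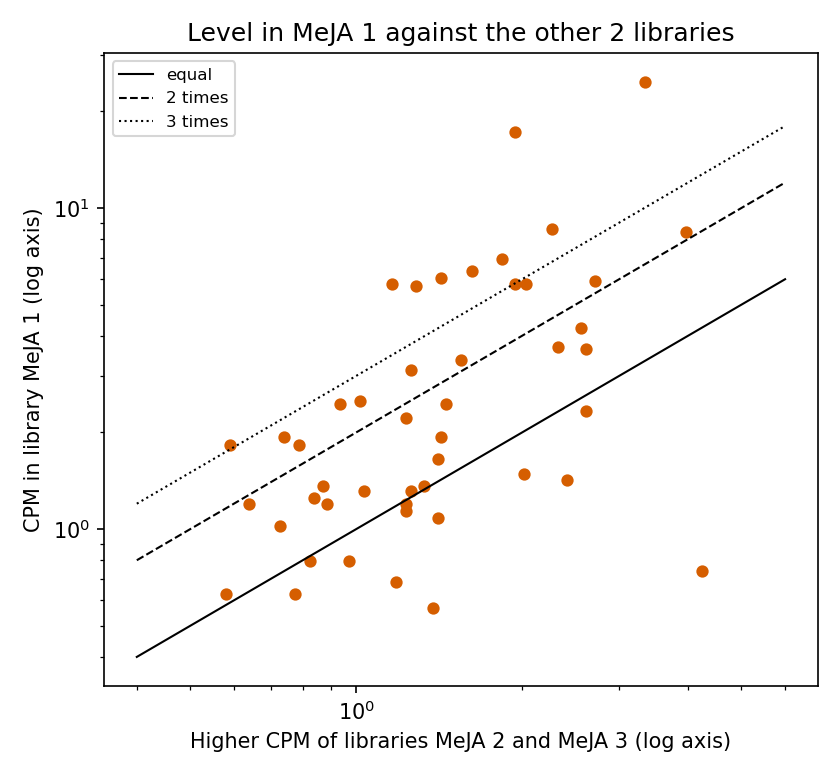
CPM in MeJA 1 against the higher CPM of MeJA 2 and MeJA 3 for the 47 members (log axes), with lines at equal levels and at 2 and 3 times. Of the points, 19 lie on or above the line at 2 times and 9 on or above that at 3 times, and the lone point far to the lower right is c51728_g1, with 13, 14 and 86 fragments.

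A few members ran the other way. In c51728_g1, singled out after its values were seen, MeJA 3 had 5.72 times the CPM of the next library, from 13, 14 and 86 fragments in MeJA 1 to 3. Unigene c34736_g1, also singled out afterwards, had 10, 10 and 28 fragments, with 2.42 times the next library in MeJA 3. No member had at least 2 times the CPM of the next library in MeJA 2. For comparison, among the 142 unigenes counted only in control, control 1 was the highest library for 117 and the median coefficient of variation was 30.1%.

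The members were short as well as weak. Their median effective length was 498.5 bases, with quartiles of 276 and 805, against a median of 1091 over the tested unigenes for which a length could be recovered. An effective length under 300 bases was found for 29.8% of the members and 10.2% of the tested unigenes, and one of at least 1000 bases for 19.1% and 54.0%. Unigenes counted only in control had a median of 544 bases, near that of the members. A minimum count admits a short unigene only at a high FPKM. The mean CPM of the members was also at most 10.5, which keeps the FPKM of the long members low. The points in the plot of length and level thus run from upper left to lower right. The longest members were c51944_g1, at 2517 bases and an FPKM of 0.917 ± 0.560 (SD, n = 3), and c41832_g1, at 1982 bases and 1.29 ± 0.576 (SD, n = 3). Unigene c51944_g1 had 65, 48 and 18 fragments in MeJA 1 to 3, and c41832_g1 had 64, 54 and 28. In both the order of the libraries was MeJA 1, MeJA 2, MeJA 3.

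**Figure D4:**
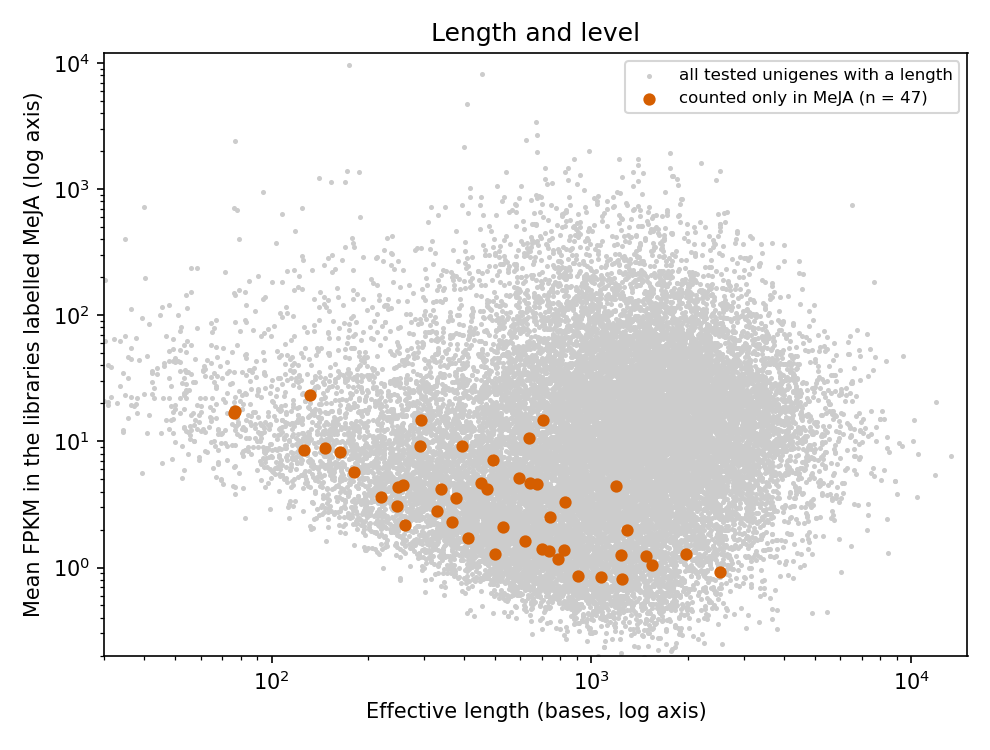
Mean FPKM in the libraries labelled MeJA against effective length (log axes) for the tested unigenes with a recovered length (grey) and the 47 members (orange). The members lie along the lower left edge, with median values of 3.55 FPKM and 498.5 bases against 8.45 FPKM and 1091 bases over the tested unigenes.

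In RSEM, which estimated the counts, the effective length of a gene is a mean over its assembled transcripts weighted by their abundance. It therefore shifts between libraries when the mix of transcripts shifts, apart from a constant offset per library. After that offset was removed, the lengths of 11 members (23.4%) differed by over 5% between the libraries labelled MeJA, against 19.9% of the tested unigenes. Unigene c34736_g1 had effective lengths of 479, 245 and 264 bases in MeJA 1 to 3. Unigene c22305_g1, also named after its values were seen, had 844, 596 and 1031 bases. For the other 36 members the recovered length was nearly the same in each library, as for c104617_g1 at 703, 696.5 and 714 bases before the offset was removed. Estimated counts that are not whole come from fragments shared between sequences. Only c51833_g1 had them, with 100.29, 13.26 and 26.1 fragments, which is 2.13% of the members and the same percentage as among the tested unigenes.

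The members came from 45 components, and 11 of them (23.4%) had another unigene in their component, against 35.3% of the tested and 16.5% of all listed unigenes. In 2 components both unigenes were members. In the component c55699, g1 had 34, 12 and 15 fragments in MeJA 1 to 3 and g2 had 32, 12 and 12. In c37392, g1 had 44, 21 and 15 fragments and g2 had 11, 12 and 10. The 2 unigenes of c55699 thus kept nearly the same ratio in each library, while those of c37392 differed most in MeJA 1. Unigenes of a component are built from connected sequence, so these pairs are not independent members. They were named because both unigenes are members.

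The remaining 7 members with a neighbour shared their components with 11 other unigenes, whose counts the rule did not use directly. The counts of c51833_g2 are still tied to the rule, as it appears to share fragments with its member. Of the 11 neighbours, 7 passed the filter on low counts. By edgeR's quasi-likelihood test, 5 of the 7 rose in the libraries labelled MeJA and none fell, beside 14.3% and 12.8% of all tested unigenes. With total counts only, 6 of the 7 were called higher, beside 24.8%. With so few neighbours, 3 of them in 1 component, this count describes these components only. Among the 5 tested neighbours of the unigenes counted only in control, 2 were lower and 1 was higher in MeJA. The remaining 4 neighbours of the members had at most 3 fragments in any library.

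The largest change among the neighbours was that of c53606_g1, with 110, 58 and 64 fragments in MeJA 1 to 3 and 0, 2 and 1 in control 1 to 3. Its groups were far apart, with a log2 difference of 5.57 ± 0.90 (standard error; edgeR adjusted p = 0.00300). The member of that component, c53606_g2, had 41, 54 and 19 fragments. Here MeJA 1 was the highest library for the neighbour and MeJA 2 for the member.

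Unigene c51944_g2, the neighbour of the longest member, had 179, 51 and 86 fragments in MeJA 1 to 3 and 1, 4 and 7 in control 1 to 3. It rose by 4.15 ± 0.84 on the log2 scale (edgeR adjusted p = 0.00668). Unigene c53753_g2 had 155, 77 and 73 fragments in MeJA and 9, 2 and 12 in control. Its rise was 3.25 ± 0.69 on the log2 scale (edgeR adjusted p = 0.00818). The member beside it, c53753_g1, had 23, 26 and 11 fragments and was the weakest of all members by FPKM, at 0.817 ± 0.284 (SD, n = 3). In both components the neighbour was low but present in every control library, and the groups did not overlap.

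The component c61226 was the largest of those with a member, with 6 unigenes. Its member, c61226_g5, had 34, 15 and 29 fragments in MeJA 1 to 3. Unigene c61226_g2 had 106, 61 and 139 fragments in MeJA and 5, 14 and 9 in control, which is a log2 rise of 2.83 ± 0.68 (edgeR adjusted p = 0.0142). The most counted, c61226_g3, had 1455, 850 and 1086 fragments in MeJA and 408, 491 and 553 in control. Its groups did not overlap in CPM by library total, though they did after TMM scaling, and the log2 difference of 0.66 ± 0.36 missed the threshold (edgeR adjusted p = 0.199). It passed only with total counts in place of TMM factors, at a log2 of 1.26 and an adjusted p of 0.0222 in edgeR, a scaling under which the median over the tested unigenes moves from -0.01 to 0.56 on the log2 scale. Unigene c61226_g6 had 18, 39 and 24 fragments in MeJA and 3, 5 and 42 in control, so that its groups overlapped (edgeR adjusted p = 0.907).

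The last neighbour called was c51833_g2, with 67.71, 34.74 and 40.9 estimated fragments in MeJA 1 to 3 and 15, 3 and 3 in control. Its counts that are not whole, like those of the member c51833_g1, come from fragments divided between sequences, so their split is uncertain. In each library labelled MeJA the counts of this pair add up to a whole number, so they appear to share the divided fragments. Their counts are thus not independent of each other. Whether the member's zeros in control rest on the same division was not tested. The log2 rise of c51833_g2 was 2.30 ± 0.73 (edgeR adjusted p = 0.0406). The call was lost in edgeR without MeJA 1 (log2 1.92, adjusted p = 0.138), MeJA 3 (2.41 and 0.0722), control 2 (2.01 and 0.136) or control 3 (1.92 and 0.131).

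**Figure D5:**
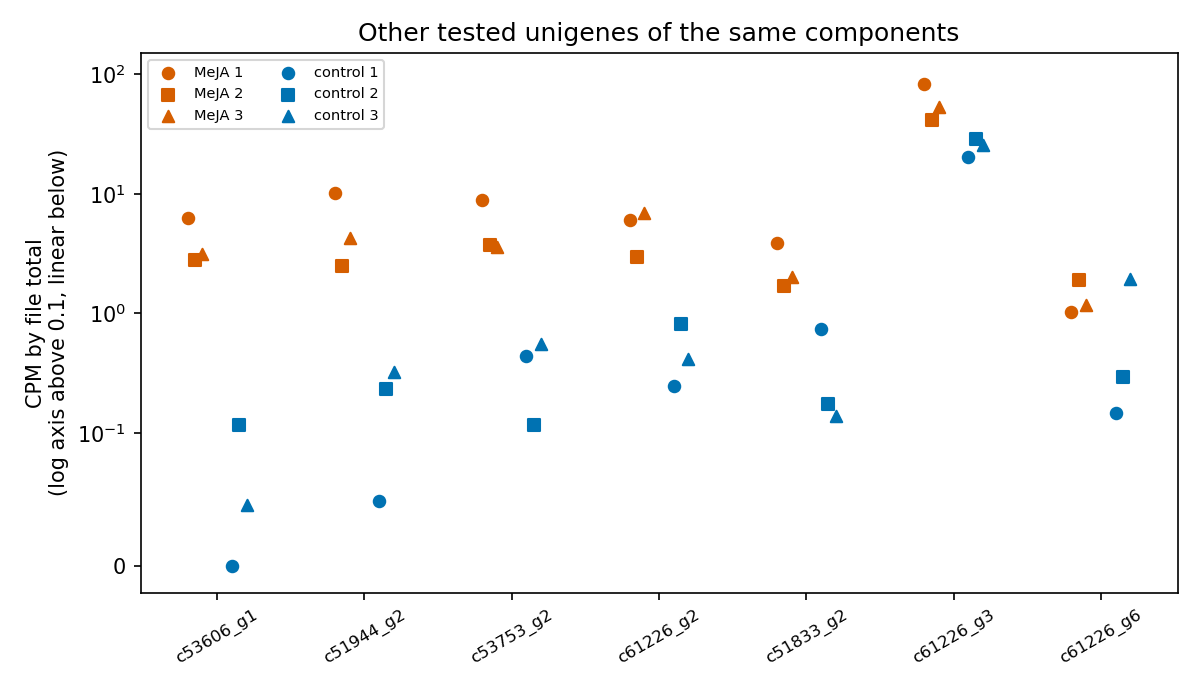
CPM in each library (log axis above 0.1, linear below) for the 7 tested unigenes that share a component with a member, ordered by adjusted p, with MeJA in orange and control in blue and a marker shape for each replicate number. On this scale the groups are apart in the 5 unigenes at the left and in c61226_g3, whose fold was smaller and whose groups overlap after TMM scaling, and they overlap in c61226_g6.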

How the data were processed

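RNA-Seq was made from 3 libraries labelled MeJA and 3 labelled control. RSEM and CASAVA are named in the submitters' processing notes, and the authors assembled unigenes from the reads without a genome. For the assembler, the aligner and all versions, the sources used here give nothing. The values deposited per library are RSEM's estimated counts of fragments, not normalized. Beside them stands the FPKM that the authors scaled by effective length and library total.

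Members were found on the counts as deposited. The members and all lists were chosen with earlier results of these data known. Effective length was recovered as the count over the product of FPKM and library total, for values of at least 10 counts and 0.3 FPKM. Rounded counts were scaled by TMM factors and fitted in edgeR 4.0.16 under R 4.3.3 (low counts filtered by filterByExpr at 10 counts and 15 in total; quasi-likelihood F-test), two-sided, adjusted by Benjamini-Hochberg over 24646 unigenes, threshold 0.05. Standard errors are the absolute log2 fold change over the square root of F. The fit was tested on counts simulated from its own estimates, which checks neither the group labels nor unigenes without counts in a whole group. Alternatives were other scalings, no filter, DESeq2 1.42.0, a threshold of 0.01, the replicate block, each library left out, other count minimums, summed components and thinned counts. The reads listed per library in a supplementary table of the paper served only to check the labels. Python 3.11.15 made the tables.

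Members were named by rule: the 6 of highest FPKM, the 2 longest, the 2 of smallest minimum count, the 2 least and the 2 most variable, and those with a tested neighbour; of non-members, the 2 closest to the rule, with ties broken by higher FPKM. Others are marked as named after their values were seen.

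Replicate numbers 1 to 3 occur in both groups. Same-numbered libraries deviated from their group means together (correlations across unigenes of 0.255, 0.278 and 0.324). Pairs of unlike number had correlations from -0.395 to 0.123. These are in part fixed by the former and no separate evidence, as the deviations within a group cancel out. On these correlations alone, taken from these same data, same-numbered libraries were treated as paired in the block fit, since no label explains the numbers. Replicates were not duplicates (chi-square per degree of freedom at least 71.8). No deposited column was left out beside the sample name. Measurements other than RNA-Seq were not analysed here.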

Additional observations from a re-analysis of the deposited data

How the results depend on the processing

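The number of unigenes counted only in MeJA, 47, was 122, 15 and 3 with a minimum of 5, 20 and 50 fragments, 88 with at most 1 fragment allowed over the control libraries, and 49 to 181 with each library left out. It was 42 with counts summed per component and 42 with counts thinned to the smallest library, 34 of these being members. With a minimum of 5 fragments the median FPKM was 2.02 and the median fold bound 14.5. With a minimum of 20 the median fold bound was 60.9, the median effective length 636.9 bases and the median coefficient of variation 68.8%; without each MeJA library the last was 28.9% to 53.7%.

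Component neighbours called numbered 5, with 4 to 6 under the other fits (5 with the replicate block) and 3 at a threshold of 0.01, where c51833_g2 and c61226_g2 were no longer called. The difference of c61226_g6, called in none of these fits, turned to -0.09 when MeJA 2 was left out, -0.34 for control 1 and -0.22 for control 2. It was 2.07 for control 3. Over all unigenes 6663 were called, 2746 at a threshold of 0.01, 8350 with the replicate block, and 3787 to 6803 with each library left out (3787 without MeJA 1, 3847 without control 2); the cause was not tested. The block changed no call among the neighbours. With total counts only, 6104 unigenes were called higher and 1820 lower, against 3514 and 3149. Depth limits single members, as 18 of the 47 had under 30 fragments in every library.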

Other observations

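The 41 unigenes with at least 10 fragments in every library labelled MeJA and a single fragment over the control libraries had levels near those of the 47 members. Their median FPKM was 4.15, their highest was 34.8, and MeJA 1 had the highest CPM for 34 of them. The 106 unigenes counted in MeJA 1 and MeJA 2 but in neither MeJA 3 nor control had a median effective length of 554 bases, and 11 of them shared a component with another unigene. They summed to 225 CPM in MeJA 1 and 136 CPM in MeJA 2, against 168 and 58.6 CPM for the members, which are fewer. Per unigene their median was 1.31 CPM in MeJA 1 and 0.824 CPM in MeJA 2, against 1.94 and 0.872 CPM for the members. A count of 0 in MeJA 3 allows each of the 106 up to 0.148 CPM there (3 counts, counting error only). No group was set by these values, and the cause of the zeros in MeJA 3 was not tested.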
